A study of Mus musculus with 10 samples.

Results

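Accessible sites at the transcription start sites (TSSs) of long noncoding RNA (lncRNA) genes, and away from the TSSs of protein-coding genes, were examined in mouse embryo fibroblasts. Included were sites that reached within 1 kb of a TSS of a lincRNA or antisense gene, on either side, and lay more than 1 kb from every TSS of a protein-coding gene. This held for 2333 of the 150083 sites on chromosomes 1 to 19 of mm10, or 1.55% (95% Wilson interval 1.49 to 1.62), in a list of 153924 sites in all. They are referred to as lncRNA-start sites. A further 1375 sites lay at TSSs of both kinds, so 37.1% (35.5 to 38.6) of the 3708 sites at any lncRNA TSS were shared with a coding gene and left out.

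The sites were identified by ATAC-seq, in which a transposase cuts accessible DNA and the fragments are sequenced. The immortalized fibroblasts (iMEF) lacked exon 4 of the endogenous Ash2l gene and carried a lentivirally introduced human ASH2L fused to HA tags and to FKBP12 carrying the F36V substitution, a fusion that the PROTAC dTAG-13 targets for degradation. According to the methods the cells were of 1 clone. The 5 groups, all with the same deletion and fusion protein, had 2 libraries each and comprised cells without dTAG-13, given ethanol according to the methods, and cells with dTAG-13 at 4 durations (30 min, then 4 h, then 8 h and lastly 24 h). The deposited list pools all 10 libraries and gives only positions, so the depth is unknown, and neither the time points nor the replicates could be compared here. For the same reason the fibroblast identity of the cells was not checked against marker genes. A site in the list was accessible in at least a part of the libraries. Intervals in the following are 95% intervals that treat sites or genes as independent draws, and they contain no replicate error.

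LncRNAs are transcripts longer than typical small RNAs that do not encode proteins. In the GENCODE annotation a lincRNA gene lies between coding genes, whereas an antisense gene overlaps a coding gene on the opposite strand. Many lncRNA promoters resemble coding promoters in their open chromatin and in trimethylation of lysine 4 of histone H3, the mark deposited by KMT2 complexes of which ASH2L is a core subunit, whereas others start from enhancers. CpG islands (CGIs), stretches rich in unmethylated CpG dinucleotides, lie at most promoters of broadly expressed coding genes.

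To show what such sites look like, the middle 200 bp are printed for those at lncRNA genes of known function (named below) that contained matches to the most transcription factor motifs. Letters are the plus strand of mm10 from the RefSeq copy of GRCm38, and capitals mark motif matches. In the order printed, the capitals mark AP-1 and CTCF in Tbx3os2, AP-1 and TEAD in Airn, NFY in Dlx6os1, RUNX in Mir124a-1hg, AP-1 in Pvt1, ETS in Snhg20 and AP-1 in Dnm3os.
Tbx3os2 (chr5:119691224-119691423): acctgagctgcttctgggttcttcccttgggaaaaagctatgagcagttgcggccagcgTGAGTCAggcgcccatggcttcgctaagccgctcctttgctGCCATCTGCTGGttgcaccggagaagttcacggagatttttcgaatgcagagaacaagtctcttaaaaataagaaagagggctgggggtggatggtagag
Airn (chr17:12740345-12740544): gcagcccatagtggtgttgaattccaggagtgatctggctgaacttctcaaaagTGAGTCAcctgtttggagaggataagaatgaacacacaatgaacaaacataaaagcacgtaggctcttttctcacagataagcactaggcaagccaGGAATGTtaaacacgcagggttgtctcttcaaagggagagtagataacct
Dlx6os1 (chr6:6830399-6830598): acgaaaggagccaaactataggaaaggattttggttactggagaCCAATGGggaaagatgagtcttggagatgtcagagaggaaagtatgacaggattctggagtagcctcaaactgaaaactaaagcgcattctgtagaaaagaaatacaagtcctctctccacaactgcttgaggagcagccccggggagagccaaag
Mir124a-1hg (chr14:64587283-64587482): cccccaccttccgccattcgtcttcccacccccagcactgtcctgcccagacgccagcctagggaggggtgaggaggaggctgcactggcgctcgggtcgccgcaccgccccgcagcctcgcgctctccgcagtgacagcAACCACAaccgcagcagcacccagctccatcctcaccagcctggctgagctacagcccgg
Pvt1 (chr15:62222829-62223028): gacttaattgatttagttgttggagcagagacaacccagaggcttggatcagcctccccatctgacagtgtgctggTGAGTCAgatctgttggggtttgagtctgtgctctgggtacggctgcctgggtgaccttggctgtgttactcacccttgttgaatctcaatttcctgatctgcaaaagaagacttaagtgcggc
Snhg20 (chr11:117076689-117076888): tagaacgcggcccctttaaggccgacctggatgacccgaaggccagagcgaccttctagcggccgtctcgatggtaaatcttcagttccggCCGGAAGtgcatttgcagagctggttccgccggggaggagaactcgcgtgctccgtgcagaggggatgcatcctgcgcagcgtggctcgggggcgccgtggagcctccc
Dnm3os (chr1:162218629-162218828): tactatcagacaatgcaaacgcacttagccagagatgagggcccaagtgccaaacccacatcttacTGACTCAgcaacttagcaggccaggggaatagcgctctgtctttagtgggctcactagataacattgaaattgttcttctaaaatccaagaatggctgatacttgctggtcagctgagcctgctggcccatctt

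The Airn sequence lies upstream of the first TSS of this gene. The Snhg20 and Mir124a-1hg sequences come from sites that overlap a CGI, with a GC content of 59.8% and 62.5% over the whole site. The Tbx3os2 sequence, with the AP-1 match on the plus strand and the CTCF match on the minus strand, is from an 889 bp site that covers the TSS of this gene beside the T-box gene Tbx3.

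Most lncRNA-start sites belonged to lincRNAs. There were 1663 sites (71.3%, 69.4 to 73.1) at lincRNA TSSs, 663 (28.4%, 26.6 to 30.3) at antisense TSSs and 7 at both. Only 65 sites (2.79%) lay at TSSs of more than 1 lncRNA gene. The middle of a site lay outside every coding gene in 94.7% (93.5 to 95.7) of the lincRNA sites. Of the antisense sites, 61.4% (57.6 to 65.0) were centred in an intron of a coding gene, 9.05% in an exon and 29.6% outside. The gene types are defined by this overlap, so these shares describe the annotation. Per chromosome the share of sites that were lncRNA-start sites ranged from 1.11% on chromosome 15 to 2.54% on chromosome 17. The share of their lncRNA genes with an lncRNA-start site was 30.4% and 31.7%.

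Many of the sites stopped short of the lncRNA TSS. A TSS was covered by 1093 of the 2333 sites (46.8%, 44.8 to 48.9). The middle of the site was a median of 419 bp (396 to 461) from the nearest lncRNA TSS and within 250 bp of it in 35.3%. It was upstream in 1181 sites and downstream in 1148, with a median offset of -6 bp, as a description only, since sites were selected from a window symmetric about the TSS. Around the 2797 lncRNA TSSs with such a site within 1 kb, the share of TSSs with a site at a given distance was highest 40 bp upstream, at 52.2%, and was 22.8% and 24.6% at 1 kb upstream and downstream. Around 55159 coding TSSs with a site within 1 kb the share was 84.0% at the TSS itself, and 24.5% and 27.5% at 1 kb. Neighbouring TSSs of 1 gene share sites, so these TSSs are not independent. The curves differed least at 1 kb. At 300 bp downstream the shares were 41.5% for lncRNA TSSs and 78.6% for coding TSSs.

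**Figure D1:**
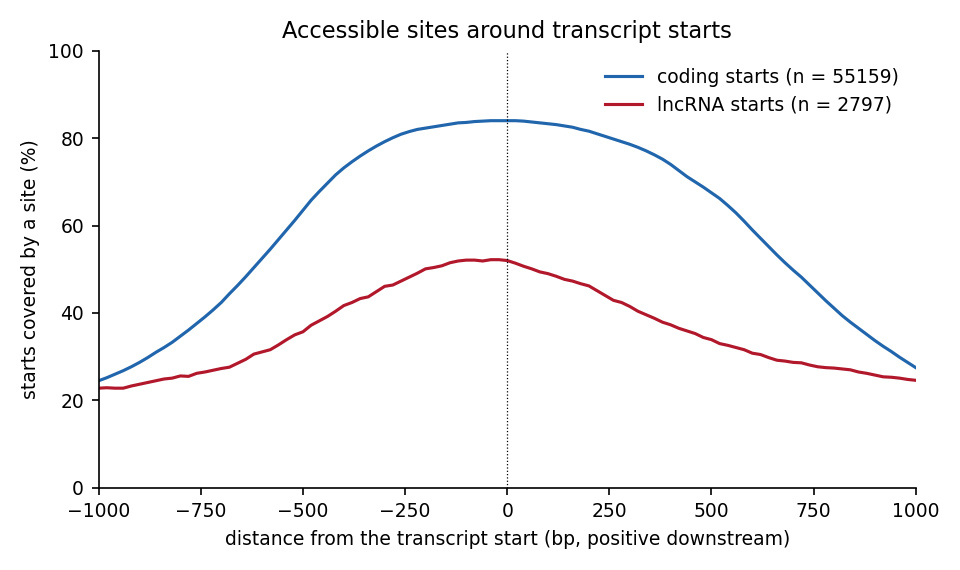
Share of transcript starts at which an accessible site covers the base at a given distance (y axis, %) against that distance (x axis, bp), for lncRNA starts with an lncRNA-start site within 1 kb (red) and coding starts with any site within 1 kb (blue). Both curves peak at or next to the start, at 52.2% and 84.0%.

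As a whole class, the sites were narrower than those at coding TSSs and wider than the remaining sites. Their median width was 741 bp (714 to 779), with quartiles of 449 and 1092 bp and a range of 176 to 3189 bp. The 20369 sites at coding TSSs had a median of 1180 bp (1169 to 1191), and the 127381 sites at neither kind of TSS had 569 bp (566 to 572). The median was 439 bp below that of coding sites, and lower on 19 of 19 chromosomes. It was 172 bp above that of the remaining sites, and higher on 19 of 19. A rule of overlap with a window favours wide sites, and when the middle of the site had to lie within 1 kb of the TSS, which does not depend on width, the median was 726 bp. The 1093 sites that covered a TSS had a median of 950 bp (921 to 985), though wider sites cover a TSS more readily. The 1240 sites beside a TSS had a median of 548 bp (526 to 588), an interval that held the 569 bp of the remaining sites. LincRNA sites were wider than antisense sites, with medians of 781 bp (734 to 807) and 674 bp (629 to 726), and the order was the same on 14 of 19 chromosomes. Sites shared with a coding TSS had a median of 1424 bp.

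**Figure D2:**
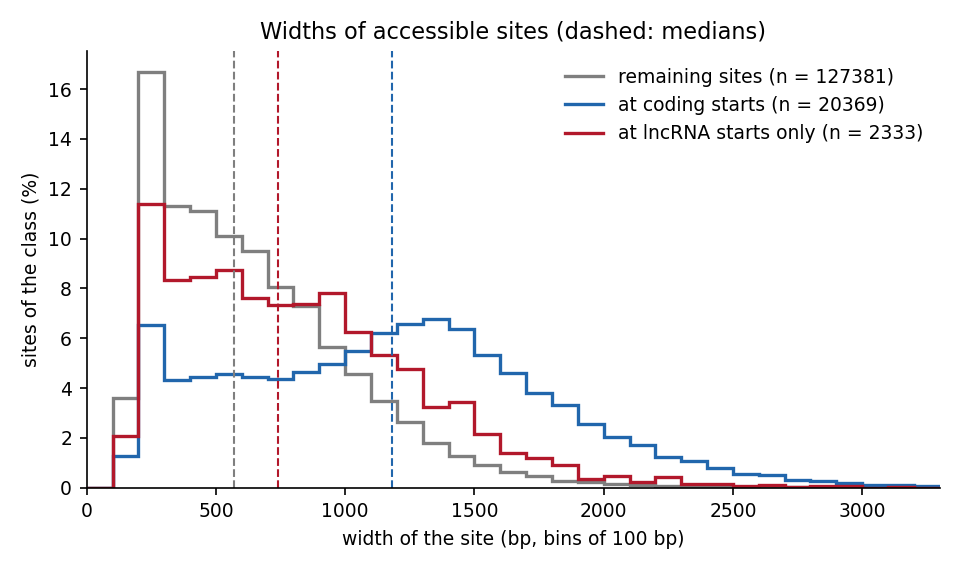
Widths of accessible sites (x axis, bp) as a share of the sites of each class (y axis, %) for lncRNA-start sites (red), sites at coding starts (blue) and remaining sites (grey), with medians as dashed lines. The lncRNA-start sites lie between the others, with medians of 569, 741 and 1180 bp from left to right.

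The 5 widest sites were at lincRNA genes. The widest, 3189 bp at chr4:101354241-101357429, lay at the TSSs of 0610043K17Rik and E130102H24Rik and overlapped a CGI. It was followed by 2935 bp at Gm44734, which had no CGI, and by 2903 bp at Mir17hg, the host gene of a cluster of growth-promoting microRNAs, with a GC content of 69.1%. A site of 2868 bp at Gm14005 contained an AP-1 match and no CGI, and one of 2803 bp at 1700127F24Rik overlapped a CGI. All 5 covered a TSS and lay outside coding genes. Among genes named for lying opposite a coding gene, the widest sites were at Tvp23bos (2008 bp), Lrrc75aos2 (1865 bp) and Grin1os (1728 bp). Of these, only the Grin1os site overlapped a CGI, and it did not cover the TSS.

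The share of lncRNA-start sites at CGIs was far below that of coding sites and close to that of all sites. A CGI, computed from the genome sequence, overlapped 227 sites (9.73%, 8.59 to 11.0), against 55.2% (54.5 to 55.9) of sites at coding TSSs 0.971% (0.919 to 1.03) of the remaining sites and 8.47% (8.33 to 8.61) of all sites. The difference was -45.5 percentage points (Newcombe interval -46.8 to -44.0) from coding sites, and 8.76 points (7.62 to 10.0) from remaining sites. Each sign was the same on 19 of 19 chromosomes. A wider site overlaps a CGI more readily, and the classes differed in width. Among lncRNA-start sites of 619 bp or wider the share was 13.8%, and the part of width in the differences was not tested. When CGIs within 1 kb of the TSS were also counted, the shares were 11.9% of lncRNA-start sites and 59.6% of coding sites. LincRNA and antisense sites overlapped a CGI in 9.56% and 9.65%, a difference of -0.0921 points (-2.91 to 2.43). The sequence followed the same order of classes, with a median GC content of 48.5% for lncRNA-start sites, 55.5% for coding sites and 44.5% for remaining sites. The median ratio of observed to expected CpG was 0.248 (0.241 to 0.257), against 0.574 and 0.177.

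The sites with a CGI had further features of sites at coding TSSs. Their median width was 1207 bp (1149 to 1281), against 707.5 bp (682 to 730) for the 2106 sites without, and it was larger on 18 of 19 chromosomes. They covered a TSS in 73.1% (67.0 to 78.5), against 44.0% (41.9 to 46.1), a difference of 29.1 points (22.6 to 34.9) with the same sign on 18 of 19 chromosomes. A wider site overlaps a CGI and covers a TSS more readily, and the part of this in both differences was not tested. The sites without a CGI were still wider than the remaining sites, of which 16.7% reached 1000 bp, with 27.4% at or above this width (difference 10.6 points, 8.76 to 12.6, the same sign on 19 of 19 chromosomes).

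A neighbouring site was more frequent at lncRNA-start sites as a class than at remaining sites. Another site lay within 1 kb of 24.3% (22.6 to 26.0) of lncRNA-start sites, against 19.1% (18.9 to 19.3) of the remaining sites, and the difference of 5.15 points (3.44 to 6.95) had the same sign on 15 of 19 chromosomes. For coding sites the share was 23.0%, and the interval of the difference, -0.583 to 3.08 points, included 0. Antisense sites had such a neighbour more often (29.0%) than lincRNA sites (22.4%), with a difference of -6.59 points (-10.6 to -2.68) for lincRNA minus antisense and the same sign on 14 of 19 chromosomes. The excess over remaining sites was not seen in lncRNA-start sites that covered a TSS. These had such a neighbour in 18.6%, with an interval that held the 19.1% of remaining sites. Sites beside a TSS had one in 29.3%. The difference, covering minus beside, was -10.7 points (-14.1 to -7.25), with the same sign on 17 of 19 chromosomes. Its cause was not tested. Median soft-masked repeat content of all lncRNA-start sites was 10.1%, compared with 8.07% at coding TSSs and 12.0% in remaining sites.

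Next, the middle 200 bp of each site were searched on both strands for exact matches to 11 motifs. CTCF organizes chromatin loops, AP-1 (TGASTCA), TEAD (ACATTCC) and RUNX (TGTGGTT) are prominent at enhancers of fibroblasts, and ETS (CCGGAAG), SP/KLF (GGGGCGGGG), NFY (CCAATSR), YY1 (AANATGGCG), EGR (GCGKGGGCG), CREB (TGACGTCA) and NRF1 are frequent at promoters. S stands for C or G, R for A or G, K for G or T and N for any base, and CTCF and NRF1 consensus sequences are given by name. Where matches of different motifs overlapped, each was counted. A match is a description of the sequence and does not show binding.

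For the motifs named with enhancers, lncRNA-start sites were closer to the remaining sites than to coding promoters. AP-1 was matched in 293 sites (12.6%, 11.3 to 14.0), in 5.51% of coding sites, in 16.2% of remaining sites and in 14.7% of all sites. The share exceeded that of coding sites by 7.05 points (5.72 to 8.48), on 19 of 19 chromosomes. The difference from the remaining sites was -3.62 points (-4.92 to -2.20), with the lower share in lncRNA-start sites on 17 of 19. When whole sites were searched, it was -1.88 points with an interval of -3.70 to 0.0125 that included 0. RUNX was matched in 7.37%, against 3.72% of coding and 8.81% of remaining sites (8.10% of all), with a difference of 3.65 points (2.62 to 4.81) from coding sites. TEAD was matched in 5.27%, against 2.41% and 6.41% (5.85% of all), a difference of 2.86 points (2.00 to 3.86) from coding sites. CTCF was matched in 2.79% (2.19 to 3.54), compared with 1.49% of coding sites, 3.05% of remaining sites and 2.83% of all. Here the difference from coding sites was 1.30 points (0.679 to 2.06), and that from the remaining sites, -0.261 points, had an interval of -0.862 to 0.494 that included 0.

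For the promoter motifs SP/KLF, ETS and EGR the sites stood between the other classes. The shares of NRF1 and CREB also lay between, and those of YY1 and NFY below both. For each of these last motifs the interval of the difference from remaining sites included 0. SP/KLF was matched in 2.01% (1.52 to 2.67), in 6.54% of coding sites, in 0.520% of remaining sites and in 1.36% of all. The excess over remaining sites, 1.49 points (0.997 to 2.15), was present on 19 of 19 chromosomes. ETS was matched in 2.23% (1.70 to 2.91), against 5.95%, 0.833% and 1.55%, and exceeded the remaining sites by 1.40 points (0.868 to 2.08), on 15 of 19 chromosomes. EGR was matched in 0.557%, against 2.58%, 0.119% and 0.460%. YY1 had only 4 matches in 2333 sites (0.171%, 0.0667 to 0.440), against 1.81% of coding sites, 0.205% of remaining sites and 0.422% of all, and the interval of the difference from remaining sites, -0.141 to 0.236 points, included 0. In whole sites YY1 was matched in 1.03%, against 6.47% of coding and 0.595% of remaining sites, and exceeded the remaining sites by 0.434 points (0.0944 to 0.933). NRF1 was matched in 1 site, or 0.0429%, compared with 0.412% of coding sites, 0.0212% of remaining sites and 0.0746% of all. CREB was matched in 0.343%, against 0.869%, 0.221% and 0.311%. NFY was matched in 6.47%, against 7.77% of coding sites, 6.70% of remaining sites and 6.84% of all, and in 7.07% of flanking sequence. Motifs rich in GC are matched more often in sequence rich in GC, and the classes differed in GC content as given above.

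Several of these matches were less frequent just outside the sites. In 200 bp windows starting 1 kb beyond either edge of each site (4666 windows), AP-1 was matched in 3.58% (3.08 to 4.15), CTCF in 0.107% (0.0458 to 0.251), TEAD in 2.96% and RUNX in 5.02%. ETS was matched in 1.18% and SP/KLF in 0.750% of them. For these 6 motifs the interval in the sites lay above that in the flanks, whereas for YY1 (0.321%, 0.195 to 0.530) and NFY the intervals overlapped. The flanking windows were not screened for other accessible sites.

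**Figure D3:**
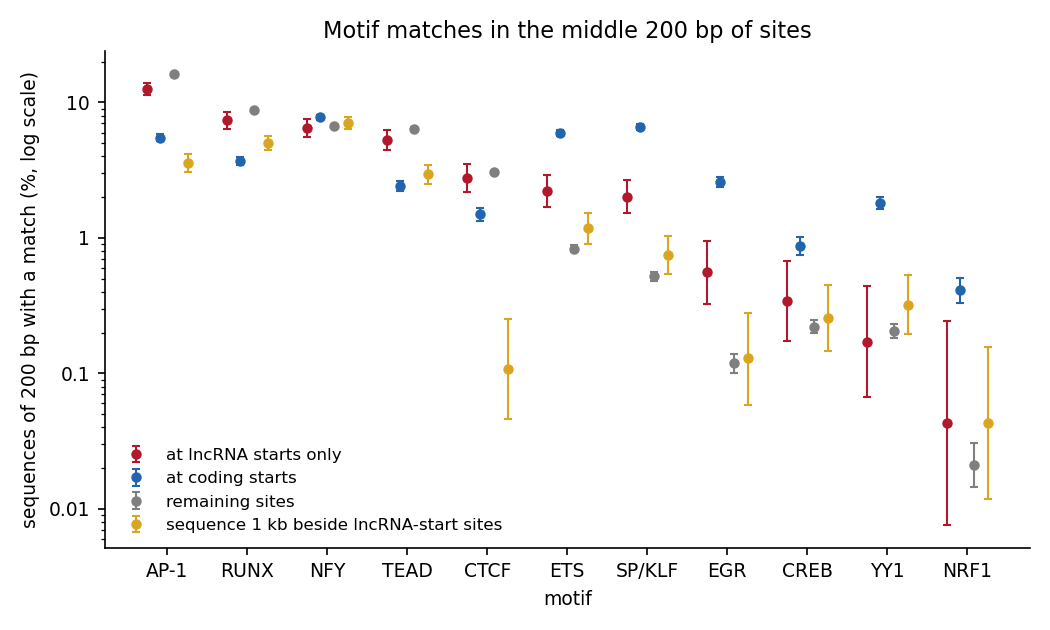
Share of 200 bp sequences with a match to each of 11 motifs (y axis, %, log scale) in lncRNA-start sites (red), sites at coding starts (blue), remaining sites (grey) and sequence 1 kb beside lncRNA-start sites (yellow), with 95% Wilson intervals. AP-1, RUNX, TEAD and CTCF in red lie nearer to grey than to blue, and SP/KLF and ETS lie between grey and blue.

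The motifs divided the sites along with CGIs. CGIs are defined by GC and CpG content, and the SP/KLF and ETS motifs contain CpG whereas AP-1 and RUNX do not. Differences between sites with and without a CGI are therefore not independent of that definition. The median GC content was 57.9% with a CGI and 47.7% without. Sites with a CGI contained SP/KLF in 7.93%, against 1.38% without (difference 6.55 points, 3.64 to 10.8, higher on 13 of 19 chromosomes). ETS was matched in 6.17%, against 1.80% (4.36 points, 1.82 to 8.31), but with few matches per chromosome it was higher on 8 chromosomes and lower on 8. Conversely, AP-1 was matched in 3.52% of sites with a CGI and in 13.5% of those without, a difference of -10.0 points (-12.3 to -6.45), and RUNX in 1.32% and 8.02% (-6.70 points, -8.22 to -3.99). In whole sites the interval for RUNX, -10.2 to 0.0827 points, included 0. Sites that covered a TSS contained ETS in 3.57% and those beside it in 1.05% (2.52 points, 1.32 to 3.86), whereas RUNX was less frequent in sites that covered a TSS (5.67% and 8.87%, -3.20 points, -5.30 to -1.08). For AP-1 the difference between them, -1.94 points, had an interval of -4.61 to 0.765. Both directions turned when whole sites, which were wider where they covered a TSS, were searched, with 3.30 points (-0.0321 to 6.64) for RUNX, and with 32.2% against 26.2% for AP-1 (interval of the difference 2.30 to 9.69). None of the 11 motifs was found in 1538 sites (65.9%), 1 was found in 672, 2 in 112 and 3 in 11.

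The 5 widest of the 11 sites with 3 motifs were at Gm38477 (AP-1, NFY and RUNX), Gm2885 (ETS, NFY and TEAD), 4632428C04Rik (AP-1, EGR and TEAD), 5430421F17Rik (AP-1, TEAD and RUNX) and Gm13919 (CTCF, NFY and RUNX). The sites at Gm2885 and 4632428C04Rik overlapped a CGI and covered a TSS, and the other 3 did neither. The 4632428C04Rik site was 54518 bp from the nearest TSS of Hes1, a transcription factor of the Notch pathway.

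A TATA box, the element that places transcription initiation at a minority of promoters, was searched as TATAAA or TATATA at 40 to 20 bp upstream. It was found at 21 of 1455 lncRNA TSSs inside an lncRNA-start site (1.44%, 0.946 to 2.20) and at 0.920% (0.837 to 1.01) of 46322 coding TSSs inside a site. The share was 1.63% (1.34 to 1.97) at 6275 lncRNA TSSs more than 1 kb from any site and any coding TSS. The interval of lncRNA TSSs inside an lncRNA-start site overlapped those of both other groups.

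Seen from the genes, 2105 of the 8122 lincRNA and antisense genes (25.9%, 25.0 to 26.9) had an lncRNA-start site, 1186 had only sites shared with a coding TSS, and 4831 had no site within 1 kb of a TSS. Of the 2105 genes, 1849 (87.8%) had 1 such site. Among lincRNA genes 29.0% (27.8 to 30.3) had one, and among antisense genes 20.4% (18.9 to 21.9). Antisense genes more often had only shared sites (835 of 2913, against 351 of 5209 lincRNA genes). When only the 6661 genes with all TSSs more than 1 kb from coding TSSs were counted, 31.7% (30.4 to 33.0) of lincRNA genes and 32.5% (30.4 to 34.7) of antisense genes had any site, and the intervals overlapped.

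Among these 6661 genes, a CGI within 1 kb of a TSS separated genes more than the distance to coding genes did. This held when any site was counted, including sites shared with a coding TSS. Any site was present at 283 of 356 genes with a CGI (79.5%, 75.0 to 83.4) and at 1842 of 6305 genes without (29.2%, 28.1 to 30.3). For lincRNA genes the shares were 86.2% and 29.2%, and for antisense genes 69.9% and 29.3%. With a CGI, the share was 81.8% at 1 to 5 kb from a coding TSS, 75.8% at 5 to 20 kb, 83.5% at 20 to 100 kb and 66.7% (48.8 to 80.8, 30 genes) beyond 100 kb. Without a CGI it was 33.6%, 32.4% and 31.6% over the first 3 distances, and 22.4% (20.6 to 24.3) beyond 100 kb. At 1 to 5 kb, however, 61 of the 108 genes with a CGI and a site had only sites shared with a coding TSS. LncRNA-start sites lay there at 35.6% (28.0 to 44.1) of genes with a CGI and 27.2% (24.1 to 30.5) without, and the intervals overlapped. Over all distances in these 6661 genes, 41.8% of antisense genes with a CGI had an lncRNA-start site, and 76.7% of lincRNA genes with a CGI. Among all 8122 genes the share was lower with a CGI (20.7%, 18.6 to 22.9) than without (27.0%, 25.9 to 28.0). There, 933 of the 1341 genes with a CGI had only sites shared with a coding TSS. The share of the 6661 genes with any site also varied with the support of the annotated transcripts. It ran from 36.0% (34.2 to 37.9) of genes with the best support level to 25.2% (22.8 to 27.8) of those with the weakest.

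**Figure D4:**
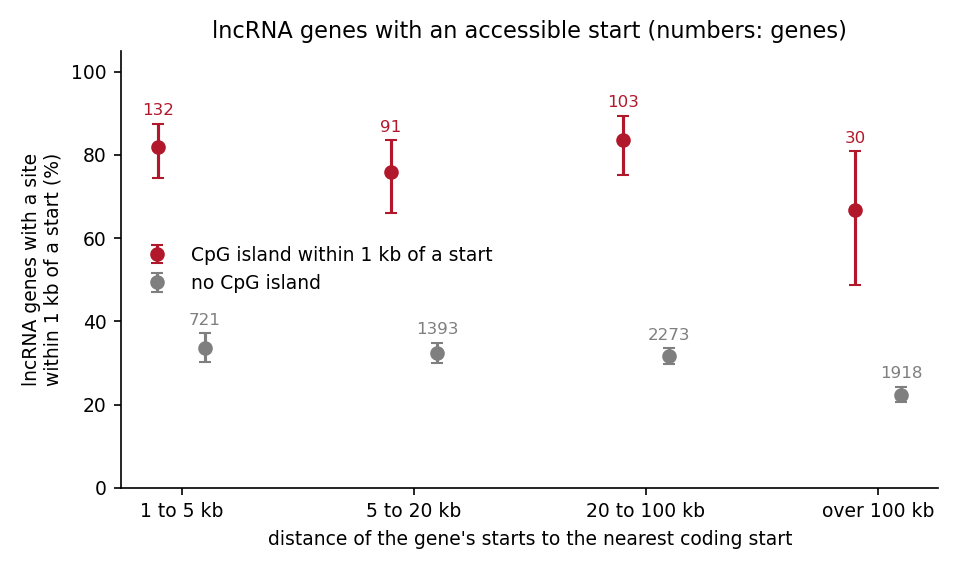
Share of lncRNA genes with any accessible site within 1 kb of a start (y axis, %) by distance of the gene's starts to the nearest coding start (x axis), for genes with (red) and without (grey) a CpG island within 1 kb of a start. Points are shares with 95% Wilson intervals and numbers are genes, and the red points lie above the grey points at each distance. Sites shared with a coding start are counted.

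The sites were as far from coding TSSs as other distal sites, at a median of 31021 bp (28998 to 32915), against 28942 bp (28621 to 29316) for the remaining sites. There were 344 sites (14.7%) at 1 to 5 kb from a coding TSS, 583 (25.0%) at 5 to 20 kb, 895 (38.4%) at 20 to 100 kb and 511 (21.9%) beyond. The share with a CGI was 15.7% (12.2 to 19.9) at 1 to 5 kb and 3.72% (2.39 to 5.73) beyond 100 kb. Each site was also sorted by the strand and side of its lncRNA TSS relative to the nearest coding TSS. At 1 to 5 kb, the lncRNA of 40.7% (35.6 to 46.0) of sites started upstream on the opposite strand, and that of 42.7% (37.6 to 48.0) downstream on the opposite strand. On the same strand, 9.59% were downstream and 6.98% upstream. The nearest coding TSS can be an internal one, so the first group includes antisense genes inside that coding gene, such as Bach2os in an intron of Bach2. Antisense genes are annotated by their place opposite a coding gene, so the opposite-strand shares near coding TSSs partly describe the annotation. Beyond 100 kb the 4 arrangements took 28.2%, 21.1%, 30.3% and 20.4%.

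At the limit of 1 kb, the sites included nearest to a coding TSS were at Hottip (1010 bp from Hoxa13), Gm31641 (1012 bp from Kcnj15) and Gm48488 (1013 bp from Gas1). The excluded sites nearest to the limit lay at 982, 997 and 999 bp. Of the 1375 excluded sites, 1158 covered a coding TSS, and 132 lncRNA-start sites lay within 2 kb of one. The farthest were at C130073E24Rik (2071108 bp from Tenm3), Gm28189 (1423414 bp from Dsel) and Gm13470 (1325246 bp from Zeb2). The C130073E24Rik site was 1801 bp wide with a CpG ratio of 0.57 and no CGI, and it did not cover the TSS.

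To relate the sites to lncRNAs of known function, 94 symbols in 5 lists were looked up. Of these, 55 were lincRNA or antisense genes on chromosomes 1 to 19, and 32 (58.2%, 45.0 to 70.3) had an lncRNA-start site, compared with 25.9% of all such genes. Another 15 had only a site shared with a coding TSS and 8 had none. Of the other symbols, 27 had another gene type and 12 were not found under that symbol. The 32 genes had 53 sites with a median width of 889 bp, of which 35 covered a TSS and 19 overlapped a CGI. The lists were compiled from genes known from earlier work and are no random choice.

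Imprinted lncRNAs are transcribed from 1 parental allele and silence neighbouring genes or mark their imprinting centres. Kcnq1ot1, which silences genes around Cdkn1c, had a 1715 bp site at chr7:143295313-143297027 over its TSS and a CGI in an intron of Kcnq1. Airn, the silencer of Igf2r, had 4 sites, of 266, 875, 674 and 529 bp, of which the 875 bp site covered its TSS and a CGI within Igf2r and the 674 bp site overlapped a CGI downstream. Nespas, in the Gnas cluster, had a site of 1562 bp over its TSS without a CGI. H19, Meg3 and Mirg, which are maternally expressed, had no site within 1 kb of a TSS, and the other 4 symbols of this list had another gene type.

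Of the nuclear or conserved lncRNAs, 8 of 11 had lncRNA-start sites, 1 had another gene type and 1 was not found under that symbol. Malat1, a component of nuclear speckles, had 2 sites, with 685 bp over the TSS and 1588 bp, including a CGI, upstream. Neat1, the scaffold of paraspeckles, had a 648 bp site with its middle at -12 bp from the TSS, over a CGI. Miat had a site of 2021 bp and 2900097C17Rik one of 1321 bp, both over the TSS and a CGI. Pantr1, beside Pou3f3, had an lncRNA-start site of 266 bp that did not reach the nearest TSS of this gene. That TSS lies within 1 kb of a coding TSS, so any site covering it would have been left out as shared. Rmst had sites of 802 and 1219 bp, the latter over a TSS. Tug1, which is transcribed away from a coding gene, had only a shared site.

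Pvt1 and Mir670hg had the most sites of all lncRNA genes, with 5 each, and 5 genes had 4, among them Airn and Lncpint. Pvt1, downstream of Myc, spans 340.1 kb and has 10 annotated TSSs. Its 5 sites were 1221, 683, 399, 361 and 1085 bp wide, and the first, over the outermost TSS, was the only one with a CGI. The 361 and 1085 bp sites lay beside and over an internal TSS. The 5 sites of Mir670hg, between 244 and 1100 bp wide, had no CGI, and 3 of them covered a TSS. The sites of Lncpint, which is induced by p53, were 2056, 1053, 1131 and 1078 bp wide, each over a TSS, and 2 overlapped a CGI.

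Among small RNA host genes, whose introns or exons are processed into small nucleolar RNAs or microRNAs, 9 of 30 symbols had lncRNA-start sites. Another gene type was given for 12 of them, and 5 were not found under that symbol. Snhg6, Snhg12 and Snhg20 each had a site over the TSS and a CGI, of 1787, 969 and 968 bp. Epb41l4aos had a site of 1136 bp of the same kind. The middle of the Snhg20 site was 0 bp from the TSS. The microRNA hosts Mir17hg and Mir155hg had sites of 2903 and 1181 bp over the TSS and a CGI. Mir124a-1hg and Mir9-3hg, hosts of microRNAs known from neurons, had 2 sites each, and Dnm3os, known from mesenchymal cells, had 3, of which the 1031 bp site covered its TSS. Mir142hg, a host known from blood cells, had no site.

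Of 31 symbols at Hox and other developmental transcription factor genes, 7 had lncRNA-start sites and 9 had only sites shared with a coding TSS. A further 9 had another gene type and 3 were not found under that symbol, so these could not qualify. These 7 genes had 8 lncRNA-start sites with a median width of 721 bp and a range of 233 to 1112 bp, and 1 of 8 overlapped a CGI. Hottip, which in other cells binds Wdr5 and activates 5′ Hoxa genes, had a site of 239 bp that lay upstream, with its middle at -766 bp from the TSS. Hoxaas3 had a 950 bp site and Hoxd3os1 a 553 bp site over the TSS. Dlx6os1 had sites of 1112 and 1014 bp, and the narrower one overlapped a CGI. Hotair, Hoxb5os and Nkx2-2os had no site.

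In the list of lncRNAs linked to p53, growth and inflammation, 8 of 16 symbols had lncRNA-start sites, with a median width of 1053 bp over 17 sites. Of the other symbols, 2 had another gene type and 3 were not found. Trp53cor1, near Cdkn1a, had sites of 209 and 1368 bp, both over a TSS. Carmn, a host of microRNAs of smooth muscle, had a site of 2565 bp over its TSS without a CGI, the widest of this list. Its neighbour Bvht had sites of 870 and 661 bp. Mirt1 had a site of 878 bp over its TSS, and Mirt2 one of 302 bp beside it.

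**Figure D5:**
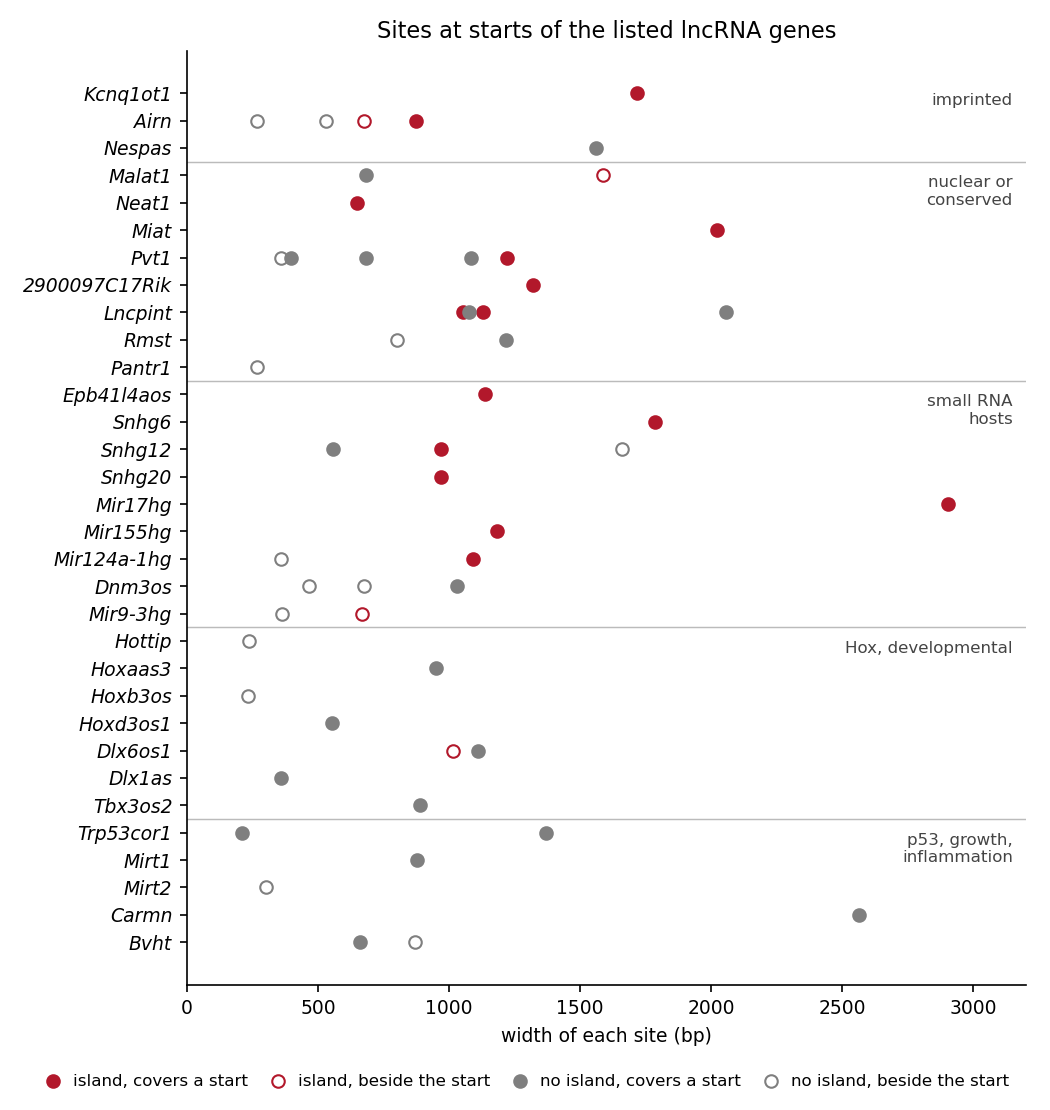
Width of every lncRNA-start site (x axis, bp) at the 32 listed genes that have one (y axis, grouped by list, genes of more than 1 list shown once). Red circles overlap a CpG island and grey circles do not, filled circles cover a start and open circles lie beside it, and the Mir17hg site is the widest at 2903 bp.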

How the data were processed

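ATAC-seq was performed on 10 libraries in 5 groups, and the authors deposited 1 list of the sites found across all samples, from which the chromosome, start and end (in bp) were used. It contains no count, score or value per library. According to the study's methods, nuclei were transposed with Tn5, reads were trimmed with Trim Galore and aligned with BWA to mm10, unusable reads were removed following ENCODE recommendations with SAMtools, replicates were merged with Picard, and narrow peaks were identified with MACS using modified nf-core code. The submitters' processing notes name MACS2 and deepTools. Versions, the peak threshold, whether read ends were shifted for Tn5 and the way sites were joined across samples are not given in the sources used here, and each can change the number and width of sites. The extract protocol in the labels describes ChIP.

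Positions were read as counted from 0 and are printed counted from 1, and 0 sites ended beyond their chromosome in GRCm38. TSSs are those of all transcripts of GENCODE release M21 (5209 lincRNA, 2913 antisense and 20807 protein-coding genes on chromosomes 1 to 19). Sequences came from the RefSeq copy of GRCm38, and 1 that the rule for printing selected is not reported here. CGIs were segments of at least 200 bp outside soft-masked repeats in which GC exceeded 0.5 and CpG exceeded 0.6 of its expected frequency, and a site was assigned to a CGI that it overlapped. The plan had also counted CGIs in the window of the TSS, and that share is given beside the main one. Shares carry Wilson intervals, differences of shares Newcombe intervals and medians intervals from order statistics, at 95%. Sites of 1 list are not replicates, so no p-value was computed, and the number of chromosomes with the same sign is given as a description.

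The sites and gene lists were chosen with earlier results of these data known. The genes named are those of 5 lists, the 5 widest sites, the genes with the most sites, the 5 sites with the most motifs (ties broken by width), the 3 widest at genes named for an opposite strand, and the 3 nearest to and 3 farthest from a coding TSS. Genes sharing the third place by number of sites are given as a count. Counting steps were tested on simulated data. Calculations used Python 3.11.15 with SciPy 1.17.1, NumPy 2.4.6 and Numba 0.67.0, and plots Matplotlib 3.10.9.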

Additional observations from a re-analysis of the deposited data

Results flagged for a closer look

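The list also contained accessible sites on chromosome X, which the selection of chromosomes 1 to 19 left out. Of 3580 sites there, 25 (0.698%) met the other conditions for an lncRNA-start site, which puts a signal outside the data of the report. The region that controls X inactivation contributed sites at Xist of 1625, 705 and 555 bp, at Jpx of 2162 bp, at Ftx of 1958, 1423, 566 and 525 bp, and at Tsix of 660 bp. The labels do not give the sex of the cells, and the list cannot show which allele was accessible.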

How the results depend on the processing

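No paired analysis was possible because libraries were pooled in the list, and for the same reason no replicate could be left out. Of the 2333 sites, 1023 (43.8%) were also selected by the RefSeq annotation, which selected 3628, so that these make up 28.2% of its selection. With RefSeq a CGI was at 8.08% and 42.3% covered a TSS. A window of 500 bp gave a width of 831 bp, CGIs in 11.9%, covered TSSs in 63.5% and sites at 20.2% of lncRNA genes. A window of 2 kb gave 3500 sites, 679 bp, CGIs in 7.46% and covered TSSs in 31.2%. Restriction to sites of 619 bp or wider, the median of the list, left 1401 sites and gave 1016 bp, CGIs in 13.8%, covered TSSs in 59.9% and 16.9% of genes. The middle in the window gave covered TSSs in 56.5%, more lncRNA gene types 44.3%, and outermost 5′ ends 24.2% of genes. Stricter CGIs gave 4.16%. In whole sites AP-1 was matched in 29.0%, CTCF in 5.23%, SP/KLF in 6.60%, NFY in 22.2%, RUNX in 21.3%, TEAD in 15.3%, ETS in 7.50%, EGR in 1.89%, CREB in 1.59% and YY1 in 1.03%. A pair of alternatives was chosen after seeing the data: sites over 1 kb from TSSs of all other genes had CGIs in 8.39%, and CGIs also counted within 1 kb of the TSS gave 11.9%. The share of RUNX was also lower in the wider sites, and NRF1 was matched in 0% of sites over 5 kb from coding TSSs. For the number of sites and genes, widths, CGIs, covered TSSs and the motifs AP-1, CTCF and SP/KLF, the other 53 values computed moved by less than their interval or, for counts, less than 1.5 times. The number of sites follows from the window and width by construction, and the cause of the other shifts was not tested. Depth is unknown, so sites missing from the list may lie under the authors' threshold.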

Other observations

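The share of lncRNA genes with a site varied with the kind of symbol. Any site lay at 78.6% (52.4 to 92.4) of 14 genes named as small RNA hosts, at 59.7% (53.8 to 65.4) of 273 genes named for an opposite strand, at 51.4% (44.1 to 58.7) of 175 genes with another name, at 45.6% (43.2 to 48.1) of 1592 genes with a Rik clone name, at 38.0% (36.8 to 39.3) of 5563 genes with a Gm number and at 36.8% (32.7 to 41.1) of 505 genes named by a clone accession. For lncRNA-start sites the shares were 57.1%, 28.2%, 38.9%, 26.9%, 24.9% and 27.1%, and the interval for opposite-strand names (23.2 to 33.8) held those of the Rik, Gm and clone accession names.

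Starts of other kinds of genes also lay within 1 kb of lncRNA-start sites, with 23 sites at microRNA genes, 22 at genes annotated as processed transcripts, 19 at genes to be experimentally tested (TEC), 17 at small nucleolar RNA genes, 13 at miscellaneous RNA genes and 11 at processed pseudogenes. Each of the other types had 7 or fewer, and the shares for other sites were not computed.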
